A study of Mus musculus with 24 samples.

Results

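The Hox genes were chosen by name: every non-control probe whose gene name on the array was Hox, followed by the cluster letter a, b, c or d and a number. This gave 49 of the 41174 probes and 38 of the 27962 gene names (11 Hoxa, 10 Hoxb, 8 Hoxc and 9 Hoxd). RefSeq (GRCm38.p6) lists 39 such genes, and Hoxc11 was the one with no probe here. Where a gene had several probes, the one with the highest mean intensity in both dyes stood for it. RNA came from the whole colon and the liver of the same 12 female C57BL/6 mice at 12 weeks of age. Every mother had received HF-low, a high-fat diet with little selenium and little folate, through gestation and lactation. From weaning at about 28 days, 6 daughters stayed on that diet (HF-low-low) and 6 were moved to HF-suf, a high-fat diet adequate in both nutrients (HF-low-suf), so no group was fed a low-fat diet and no mother had the sufficient diet. Each of the 24 two-colour arrays carried 1 sample in Cy3 and a common reference pool in Cy5, with no dye swap, and nothing in the labels gives the litter of a mouse. The comparisons below are of colon with liver in the same mice, which asks how the positional code of the gut differs from that of the liver, and of the 2 diets within each tissue.

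Hox genes encode transcription factors that bind DNA through a homeodomain and tell cells where they lie along the head-to-tail axis. They stand in 4 clusters, on chromosomes 6 (Hoxa), 11 (Hoxb), 15 (Hoxc) and 2 (Hoxd), and genes of the same number in different clusters are paralogues. Low numbers lie at the 3′ end of a cluster and act towards the head, and high numbers lie at the 5′ end and act towards the tail. In the gut, successive Hox genes are switched on from foregut to hindgut, chiefly in the muscle and connective tissue of the wall, and the highest numbers mark the most posterior hindgut. Adult cells often keep the Hox code of the region they came from.

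The homeobox, the part of the gene that encodes the homeodomain, is what all these genes share. The oligonucleotides below are 60-base array probes from homeoboxes, written 5′ to 3′ as in the array files, with positions in mouse build mm7. They are shown because they come from paralogue group 13, the most posterior group, whose probes were above background on at most 1 array of a tissue. The array files give no exon or UTR annotation for these positions. In the group 13 probes, capitals mark the 23 bases identical in all 3 within a common stretch of 44 bases. The Hoxd13 probe shown is the dimmer of that gene's 2 probes.
Hoxb13 (chr11:96304167-96304226, plus strand): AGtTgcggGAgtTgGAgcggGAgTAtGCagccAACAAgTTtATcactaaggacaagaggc
Hoxa13 (chr6:52222385-52222444, minus strand): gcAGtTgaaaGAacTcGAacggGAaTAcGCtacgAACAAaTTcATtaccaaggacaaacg
Hoxd13 (chr2:74513664-74513723, plus strand): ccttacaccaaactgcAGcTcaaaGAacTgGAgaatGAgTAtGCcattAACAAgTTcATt
Hybridization of a probe to RNA of a paralogue was not tested here.

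The tissues matched their labels. Of the colon epithelium markers 8 of 9 were higher in colon, the exception being Aqp8, a water channel that liver also makes, and 8 of 8 hepatocyte markers were higher in liver. The colon RNA was that of the whole organ, with 8 of 9 smooth muscle, 6 of 7 fibroblast, 5 of 8 enteric neuron and glia and 6 of 6 adipose markers higher than in liver. Of the endothelial markers 0 of 7 were higher in colon and 5 in liver, and of the B cell markers 1 of 6 was higher in colon and 2 in liver. Fewer cells of a type and less RNA per cell cannot be told apart in such samples, and the part of these cell types in the Hox values was not tested. A pair of arrays stood apart. Colon HF-low-suf replicate 5 and liver HF-low-suf replicate 4 had 71.9% and 59.6% of their spots well above background in Cy3, against 38.4% to 52.5% in the other colons and 26.1% to 46.8% in the other livers, and both were also the brightest in Cy5. In that liver 8.75% of the spots were flagged as outliers in either dye, against 0.41% to 0.77% in the other livers. Outlier spots were not left out of the detection counts. Liver HF-low-suf replicate 1 carried adipose transcripts (mean log2 ratio 2.58, other livers -1.83 to -0.25) and liver HF-low-suf replicate 2 had the most skeletal muscle transcripts (-2.63, other livers -4.98 to -3.88), although all 13 of these markers were above background on every array and 7 were called higher in liver. The labels describe the reference as a pool of the colons and livers. However, it exceeded all 24 samples for Kap, a kidney transcript (log2 ratio at most -6.64), Umod, of the kidney tubule (at most -3.56), and Dtprp, of the decidua (at most -5.29). The ratios below are therefore read between samples, never as levels against a colon and liver pool.

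In the colon, 18 of the 38 Hox genes were detected, a gene counting as detected where the scanner software marked its probe well above background in the sample dye on 6 or more of the 12 arrays, and in the liver 2 were. Over all probes, 43.9% met this rule in colon and 36.9% in liver. Of the 18 genes, 14 were above background in all 12 colons: Hoxa7, Hoxa9, Hoxa10, Hoxa11, Hoxb2, Hoxb3, Hoxb5, Hoxb6, Hoxb7, Hoxb9, Hoxc4, Hoxd4, Hoxd8 and Hoxd10. The others were Hoxd9 (10 colons), Hoxa5 (9), Hoxa3 (8) and Hoxb4 (6). The liver pair was Hoxc4 (9 livers) and Hoxa7 (8 livers). By cluster, detection in colon covered 7 of 10 Hoxb genes, 6 of 11 Hoxa, 4 of 9 Hoxd and 1 of 8 Hoxc genes. By paralogue number it covered 3 of 8 genes of groups 1 to 3, 9 of 15 of groups 4 to 8, 6 of 9 of groups 9 to 11, and 0 of 6 of groups 12 and 13. Single detections lay mostly on the 2 bright arrays. Of 12 genes seen in just 1 colon, 10 were seen in HF-low-suf replicate 5, and of 14 seen in just 1 liver, 13 were seen in HF-low-suf replicate 4. The number of Hox genes detected was 15 to 20 in the other colons against 31 in that colon, and 0 to 6 in the other livers against 20 in that liver. Without both arrays 17 genes were detected on at least 6 colon arrays, Hoxb4 being lost with 5 of 11, and 2 on at least 6 liver arrays.

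Between the tissues, 16 Hox genes were higher in colon and 2 in liver at a Benjamini-Hochberg adjusted P below 0.05 over all probes and a fold change above 1.5 (limma, 24 arrays, mouse as a random block), and 20 were not called. Of all probes, 12.2% were higher in colon and 11.4% higher in liver (5021 and 4688, or 6472 and 2675 when arrays were centred on their median in place of loess). The median difference over the 38 genes, colon minus liver on the log2 ratio scale, was 0.35, against -0.02 over all probes. The genes higher in colon were 8 of 10 in Hoxb, 4 of 11 in Hoxa, 4 of 9 in Hoxd and 0 of 8 in Hoxc, and those higher in liver were Hoxb13 and Hoxd13. All 12 mice had the higher value in colon for 9 of the 16. Every colon lay above every liver for 6 genes, all in Hoxb, where 6.49% of all probes did so. Without the 2 bright arrays the count became 7, with Hoxa7, and the same 16 genes were called. Leaving out these adipose-rich and muscle-rich livers (HF-low-suf replicates 1 and 2) kept 15 of the 16, with Hoxd9 lost.

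**Figure D1:**
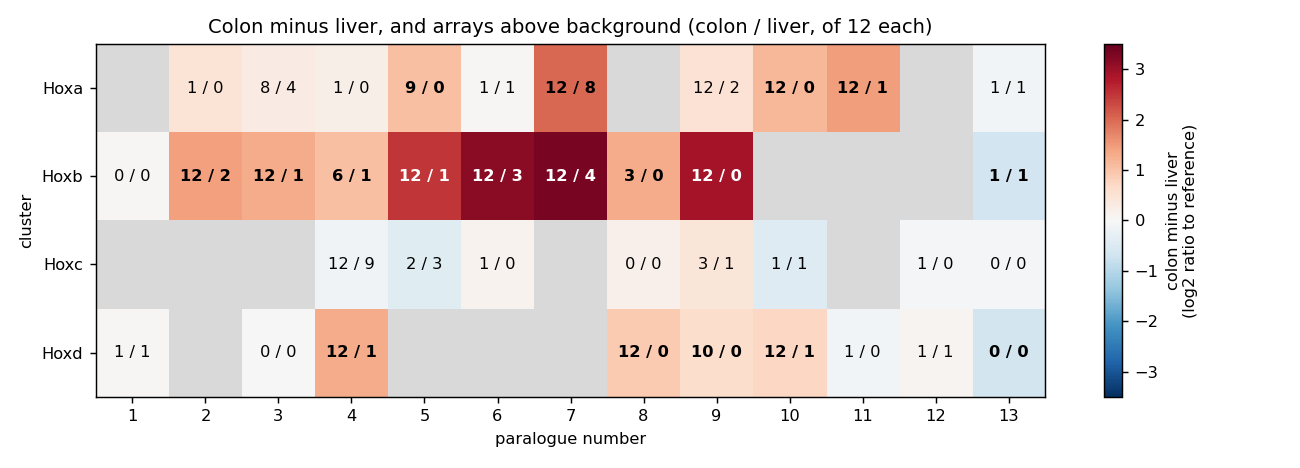
Colon minus liver difference of Hox genes (colour, log2 ratio to reference, red higher in colon) by cluster (rows) and paralogue number (columns). Each cell gives the number of colon and of liver arrays, of 12 each, on which the probe was well above background, bold marks genes called by limma, and grey cells hold no value; the red block runs through Hoxb2 to Hoxb9, and the Hoxc row holds no called gene.

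The Hoxb cluster held the largest differences. Hoxb7 (main probe at chr11:96398936-96398995), a factor of trunk and hindgut levels, had log2 ratios of 1.23, 1.56 and 2.11 in the lowest, median and highest colon and of -2.52, -2.05 and -0.51 in the lowest, median and highest liver. Its difference was 3.31 (SE 0.20, limma adjusted P = 2.06e-13), a fold change of 9.93. Only 4 livers were above background for this probe, fewer than detection requires, so the fold is set mostly against background signal. The groups did not overlap, and the highest liver was the bright HF-low-suf replicate 4. Hoxb6 (chr11:96410288-96410347), its neighbour, ran from 1.09 through a median of 1.55 to 2.05 in colon and from -2.39 through -1.77 to -0.53 in liver. The difference of 3.17 (SE 0.20, limma adjusted P = 2.60e-13) was again larger than the spread within either tissue, with 3 livers above background. Hoxb9 (chr11:96384790-96384849), the most 5′ gene of the cluster before Hoxb13, had colon values of 0.78, 1.99 and 2.28 and liver values of -1.86, -1.01 and -0.26. No liver was above background for this probe, so only a lower bound holds for its fold: at least 7.91-fold higher in colon on the scale of the Cy3 signal alone, where the fitted log2 difference was 3.05. On the ratio scale the fitted difference was 2.90 (SE 0.18, limma adjusted P = 3.90e-13). This bound, used for genes above background on no array of one tissue and printed where it exceeds 1, sets the mean normalised Cy3 signal of the bright tissue against, on each dim array, the higher of the probe's own signal and the lowest signal marked above background there. The second Hoxb9 probe, above background in 12 colons and 1 liver, gave a difference of 2.75 (SE 0.19).

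Other Hoxb genes differed in the same direction by less. Hoxb5, which acts in the development of enteric neurons and the gut wall, had a difference of 2.51 (SE 0.14, limma adjusted P = 4.38e-14), with every colon between 1.94 and 3.08 and every liver between -0.83 and 0.65. The 3′ genes followed: Hoxb2, a hindbrain regulator that was above background in all colons and 2 livers, with 1.44, Hoxb3 with 1.29 and Hoxb4, known from blood stem cells, with 1.04. Hoxb3, Hoxb4 and Hoxb5 were each above background in 1 liver, the bright one, so their differences are set mostly against background signal. The colon and liver values of Hoxb2 and Hoxb3 did not overlap, while those of Hoxb4 did, and 10 of the 11 mice measured in both tissues were higher in colon for Hoxb4 (exact sign-flip P = 0.00195). Hoxb1, the most 3′ gene, was above background on no array, with a difference of 0.05. An exact sign-flip test of the 12 within-mouse differences gave P = 0.000488, the smallest value that 12 mice allow, for Hoxb2, Hoxb3, Hoxb5, Hoxb6, Hoxb7, Hoxb8 and Hoxb9.

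In Hoxa, the genes called higher in colon were Hoxa5, Hoxa7, Hoxa10 and Hoxa11. Hoxa7 (chr6:52178996-52179055) had the largest difference of the cluster, with log2 ratios of -1.15, -0.17 and 1.01 in colon and of -3.19, -2.27 and -1.10 in liver. All 12 mice were higher in colon, and the ranges met only at the lowest colon and the highest liver, the bright HF-low-suf replicate 4. The difference was 2.01 (SE 0.23, limma adjusted P = 4.72e-08), a fold change of 4.04, in a gene that 8 livers also showed above background. Hoxa11 (chr6:52205477-52205536), a patterning gene of limb and uterus, had colon values of -2.26, -1.89 and -1.47 and liver values of -4.91, -3.24 and -1.61. Its difference was 1.47 (SE 0.27, limma adjusted P = 6.86e-05), with 10 of 12 mice higher in colon (exact sign-flip P = 0.00195). The bright liver was the only liver above background for Hoxa11. Hoxa10 (chr6:52195026-52195085), likewise known from limb and uterus, was at -2.54, -2.17 and -1.54 in colon and at -4.17, -3.59 and -1.41 in liver. No liver was above background for Hoxa10, and it was at least 1.99-fold higher in colon, with a fitted difference of 1.15 (SE 0.25, limma adjusted P = 4.84e-04) and 10 of 12 mice higher in colon (exact sign-flip P = 0.00537). Hoxa5, which patterns lung and gut, was at least 1.25-fold higher, with a difference of 1.06 (SE 0.20, limma adjusted P = 7.80e-05) and all mice in the same direction. Hoxa9, a gene of blood progenitors above background in every colon and 2 livers, reached an adjusted P of 0.0165 in limma but a fold change of only 1.43. The genes Hoxa2, Hoxa4, Hoxa6 and Hoxa13 were each above background in 1 colon, the bright one.

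**Figure D2:**
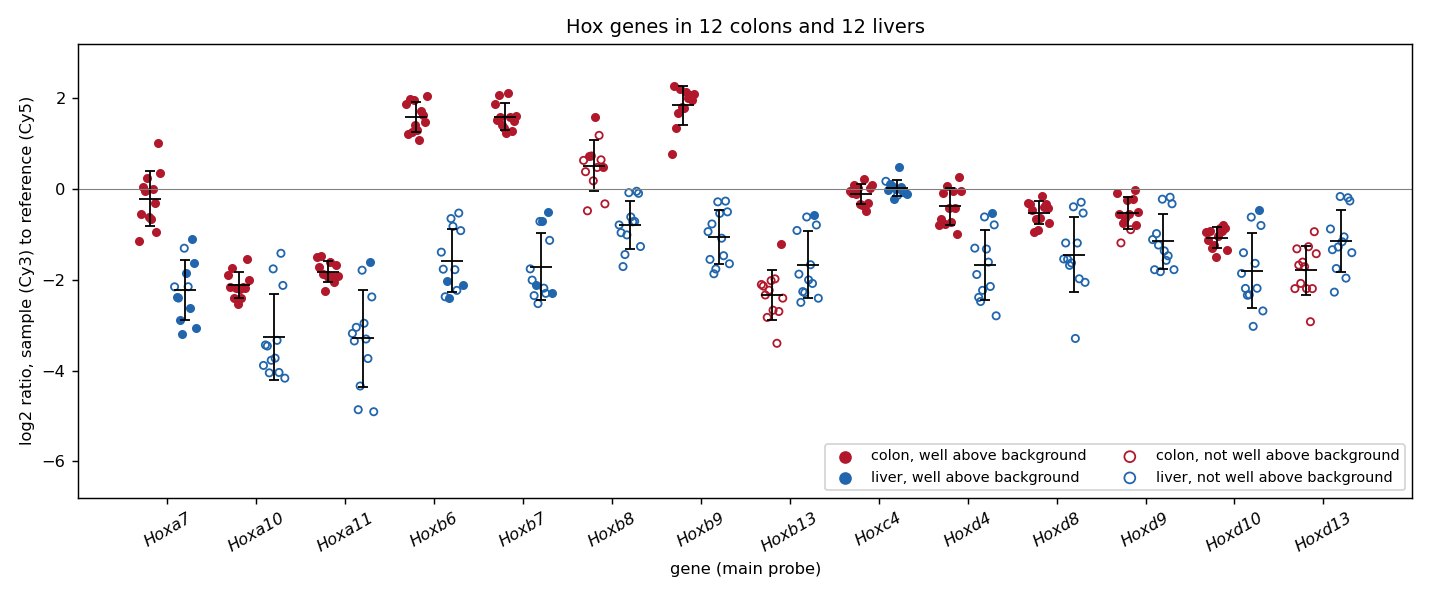
Log2 ratio of sample (Cy3) to reference (Cy5) for 14 Hox genes in each of 12 colons (red) and 12 livers (blue), with mean and SD as black bars. Filled points were well above background and open points were not; Hoxb6, Hoxb7 and Hoxb9 colons all lie above the livers, while the Hoxb13 and Hoxd13 points are nearly all open in both tissues.

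In Hoxd, 4 genes were called higher in colon, all in the middle of the cluster. Hoxd4 (chr2:74572525-74572584) had log2 ratios of -0.99, -0.42 and 0.27 in colon and of -2.79, -1.74 and -0.52 in liver, and 11 of 12 mice were higher in colon (exact sign-flip P = 0.00146). Its difference was 1.29 (SE 0.22, limma adjusted P = 2.73e-05). The bright liver was the only liver above background for Hoxd4, as it was for Hoxd10 below. Hoxd8 (chr2:74550680-74550739) was at -0.94, -0.43 and -0.15 in colon and at -3.29, -1.54 and -0.29 in liver, where no array was above background. It was at least 1.47-fold higher in colon, with a fitted difference of 0.92 (SE 0.22, limma adjusted P = 0.00111). Hoxd10 (chr2:74537939-74537998), a gene of hindlimb and lumbar levels, had colon values of -1.48, -0.99 and -0.79 and liver values of -3.02, -2.02 and -0.47. The highest liver, again the bright one, and the next, HF-low-low replicate 6 (-0.62), lay above every colon, and the difference was 0.73 (SE 0.22, limma adjusted P = 0.00834), with 9 of 12 mice higher in colon (exact sign-flip P = 0.0146). Hoxd9 gave 0.62 (SE 0.18, limma adjusted P = 0.00676) and at least 1.24-fold. It was the called gene nearest to the fold threshold and was lost in 5 of the 12 fits that left out 1 mouse each (HF-low-low replicates 1, 2 and 5, HF-low-suf replicates 3 and 6). Hoxd1, Hoxd3, Hoxd11 and Hoxd12 were above background in at most 1 colon, with differences of -0.09 to 0.11.

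No Hoxc gene was called. Hoxc4 (chr15:103022266-103022308) was the exception in detection, above background in 12 colons and 9 livers, with log2 ratios of -0.48, -0.06 and 0.23 in colon and of -0.21, -0.01 and 0.49 in liver. Its difference of -0.12 (SE 0.09, limma adjusted P = 0.326) was within the spread of the arrays and turned to 0.25 with median centring. Hoxc5 had a difference of -0.42 (SE 0.13, limma adjusted P = 0.0124), below the fold threshold, and all mice measured in both tissues were lower in colon, but only 2 colons and 3 livers were above background. Hoxc10 was at -0.46 (SE 0.17, limma adjusted P = 0.0288), also below the fold threshold, with 1 array above background in each tissue. Hoxc9 was above background in 3 colons and Hoxc6 in 1. Both were highest in colon HF-low-low replicate 4 (-0.58 for Hoxc9, the next colon -0.93, and -0.23 for Hoxc6, the next colon -0.34). The mean log2 ratio of the adipose markers was 2.96 in that colon and 0.95 to 3.11 in the others, and its part in the Hoxc values was not tested.

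The most 5′ paralogue groups, 12 and 13, did not reach detection in colon. None of the 6 genes of groups 12 and 13 was above background on more than 1 array of a tissue. Hoxb13, a marker of the most posterior body, had log2 ratios of -3.40, -2.28 and -1.20 in colon and of -2.50, -1.94 and -0.56 in liver. Hoxd13 was at -2.92, -1.69 and -0.94 in colon and at -2.27, -1.22 and -0.16 in liver. Both passed the threshold as higher in liver (differences of -0.67, SE 0.23, and -0.65, SE 0.22, limma adjusted P = 0.0187 and 0.0177), but no fold is given, since Hoxb13 was above background on 1 array of each tissue and the main Hoxd13 probe on none (its second probe on 1 of each). Neither was called with plain background subtraction, no background correction or the software-processed signals. The reference, in contrast, was above background on all 24 arrays for Hoxb13, Hoxd13 and 27 more of the 38 genes. It exceeded the sample on every array measured for 10 Hox genes (6.48% of all probes): Hoxa10, Hoxa11, Hoxb13, Hoxc6, Hoxc9, Hoxd3, Hoxd8, Hoxd9, Hoxd10 and Hoxd13. For Hoxa11 the highest of the 24 ratios was -1.47 and for Hoxa10 it was -1.41. Probe-specific dye bias cannot be told apart from content of the reference without a dye swap.

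Of the 11 genes with 2 probes, the call was the same for both probes in 7. The 7 include Hoxb2, whose second probe (chr11:96459585-96459644) lies on the minus strand, opposite to the main probe. That second probe was above background in 1 colon and no liver. For Hoxb6 the second probe (chr11:96408006-96408065) gave a difference of 0.25 (SE 0.12, limma adjusted P = 0.0930), against 3.17, although 11 colons and 5 livers were above background. Its values overlapped, from -0.55 through -0.10 to 0.36 in colon and from -0.82 through -0.38 to 0.16 in liver. For Hoxb8 the main probe gave 1.31 (SE 0.19, limma adjusted P = 1.53e-06) with 3 colons and no liver above background and a bound under 1, so that no fold is given, and the second probe -0.19 (SE 0.12, limma adjusted P = 0.263) with 1 of each. The main Hoxb8 probe ran from -0.48 through 0.56 to 1.59 in colon and from -1.71 through -0.75 to -0.05 in liver. For Hoxd9 the second probe gave 0.40 (SE 0.21, limma adjusted P = 0.148), in the same direction as the first. The main Hoxd9 probe ran from -1.18 through -0.55 to -0.01 in colon and from -1.82 through -1.30 to -0.18 in liver. For Hoxd13 the second probe, whose sequence is shown above, gave 0.13 (SE 0.19, limma adjusted P = 0.675), opposite in sign to the first.

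The size of these differences depended on how the signals were processed. The local background had a median Cy3 signal of 42.0 to 51.5 on the arrays, while the median of the negative control spots was 140 to 200, and the part of this gap in the ratios was not tested. Changing the background alone moved the Hoxb7 difference from 3.31 to 3.63 (plain subtraction) or 3.40 (no correction). With the signals processed by the scanner software, which differ in both background and dye normalization, it was 4.81, the same 16 genes were called higher in colon together with Hoxa2, Hoxa3, Hoxa9 and Hoxc9 (20 of 38, against 19.5% of all probes), and Hoxc5 was called higher in liver (1 of 38, against 14% of all probes). This scaling moved the median of all probes to 0.19, below the differences of the 20 genes called higher in colon. Of the 16 genes, 4 were above background in a liver other than the bright one, and their fold changes became 28.0 for Hoxb7, 24.1 for Hoxb6, 7.88 for Hoxa7 and 6.64 for Hoxb2. Of these 4, only Hoxa7 was detected in liver. Hoxb7, Hoxb6 and Hoxb2 were above background in 4, 3 and 2 livers, so their folds are set mostly against background signal. The direction of all 16 genes stayed, and no fold is given on this scale for the genes outside these 4.

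**Figure D3:**
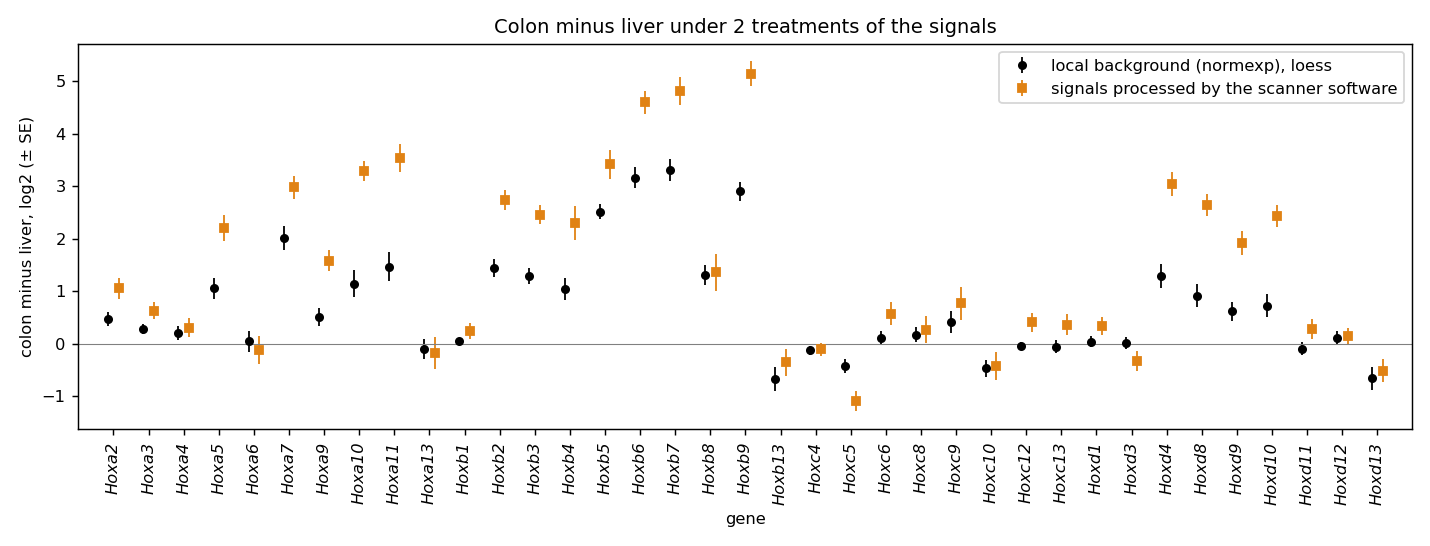
Colon minus liver difference (log2, ± SE) of the Hox genes named on the axis from the local background with loess (black circles) and from the signals processed by the scanner software (orange squares). The orange values lie above the black ones for the 16 genes called higher in colon, with the widest gaps at Hoxa10, Hoxa11 and Hoxb9.

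The slides were scanned on 2 days, with 3 slides and all groups on each, so the difference could be read within a day. On the first day all 16 genes were called and on the second 11, with Hoxa10, Hoxa11, Hoxd8, Hoxd9 and Hoxd10 lost. Their differences were 1.56, 1.57, 1.41, 0.80 and 1.08 on the first day and 0.74, 1.37, 0.43, 0.44 and 0.37 on the second, which held both bright arrays. The 8 Hoxb genes differed by 1.09 to 3.62 on the first day and by 0.98 to 3.07 on the second.

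A number of other probes lay between the outermost Hox probes of a cluster. Of 10 such probes, 1 was called, against 12.2% of all probes higher in colon and 11.4% higher in liver. The called probe was named only as TC1432492 (chr11:96456727-96456786, plus strand), between Hoxb3 and Hoxb2. It was above background in all 12 colons and no liver, with log2 ratios of 1.28, 1.90 and 2.24 in colon and of -2.65, -0.81 and -0.10 in liver. It was at least 3.18-fold higher in colon, and all 12 mice were higher in colon for it. The 9 others, 5 in Hoxa, 1 more in Hoxb, 1 in Hoxc and 2 in Hoxd, were above background on at most 2 colon arrays. Whether their transcripts moved with the Hox genes can therefore not be read here. The Evx genes, homeobox genes that flank the 5′ ends of Hoxa and Hoxd, were not called (0 of 2).

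Among the regulators and partners of Hox genes, the caudal-type factors stood out. Cdx2, which switches on posterior Hox genes in the embryo and keeps adult intestinal identity, had log2 ratios of 0.32, 2.14 and 2.57 in colon and of -4.62, -3.94 and -2.09 in liver. The difference was 5.52 (SE 0.27, limma adjusted P = 1.94e-15), with no overlap. Cdx1, its relative in the crypts, differed by 2.41 (SE 0.21, limma adjusted P = 1.59e-10), from 0.29 through 1.40 to 1.97 in colon and from -2.34 through -1.02 to -0.29 in liver. For the counts that follow, the shares over all probes were 12.2% higher in colon and 11.4% higher in liver. The lists are short, and a count near these shares is not read as a trait of a list. Of the 7 ParaHox and hindgut regulators measured, 3 were higher in colon, Cdx1 and Cdx2 among them, and none in liver. Of 9 TALE cofactors, the homeodomain partners that raise the DNA specificity of Hox proteins, 3 were higher in colon and none in liver, led by Pbx3, which no liver showed above background (at least 2.56-fold, fitted difference 1.43). The other two were Mrg1 (1.18) and Mrg2 (0.62, above background in 5 colons and 1 liver), older symbols of Meis2 and Meis3. Polycomb proteins keep Hox genes silent outside their domain. Of 28 Polycomb genes 6 were higher in colon and 2 in liver, with Cbx6 the most colon-biased (1.93). Of 9 Trithorax genes and H3K27 demethylases, which keep Hox genes active, 2 were higher in colon (Mll3, 0.92, and Ash2l, 0.64) and none in liver. Of 16 retinoic acid genes, which set Hox domains in the embryo, 2 were higher in colon, led by the synthesis enzyme Aldh1a3 (1.78, above background in no liver, at least 3.1-fold), and 8 in liver, led by the degrading enzyme Cyp26a1 (-3.93).

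**Figure D4:**
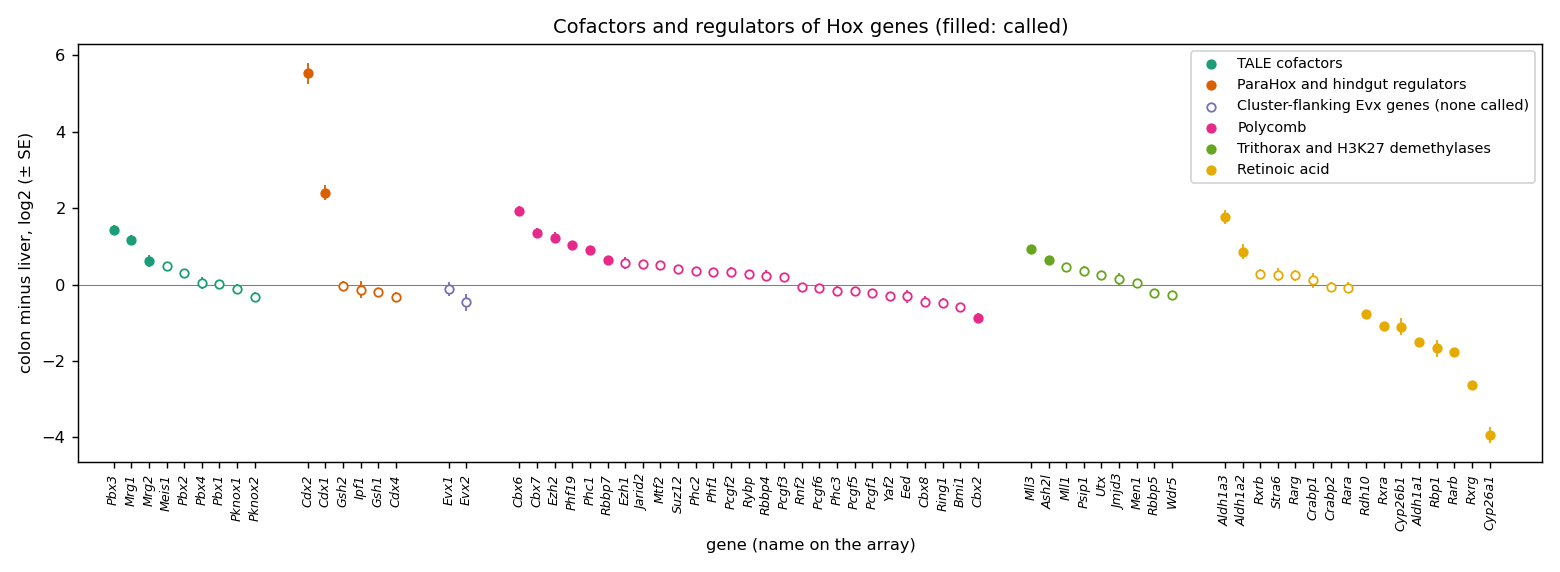
Colon minus liver difference (log2, ± SE) for genes of 6 lists of Hox cofactors and regulators, ordered within each list. Filled points were called by limma and open points were not; Cdx2 lies highest at 5.52 and Cyp26a1 lowest at -3.93.

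Homeobox genes of other families served as a comparison. Of 78 such genes (Dlx, Lhx, Nkx, Pax and others), 5 were higher in colon and 9 in liver, with a median difference of -0.12, against 16, 2 and 0.35 for the 38 Hox genes. Over all probes, 12.2% were higher in colon and 11.4% in liver. Detection was met by 12 of the 78 genes in colon and 11 in liver, against 18 and 2 of the 38 Hox genes. Of all probes, 43.9% and 36.9% met it, and the part of detection in the contrast between the families was not tested. The largest differences were those of Pitx1 in colon (2.68), a hindlimb and pituitary factor, and Lhx2 in liver (-2.56, above background in no colon, at least 2.37-fold), a factor of liver stellate cells.

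Between the diets, no Hox gene passed the threshold of an unadjusted P below 0.01 with a fold change above 1.5 in either tissue (limma, 6 against 6 mice). Of all probes, 0.168% did so in colon and 0.117% in liver, and none passed Benjamini-Hochberg adjustment. At an unadjusted P below 0.05 there was no Hox gene in colon and 1, Hoxb3, in liver, where 2.98% and 2.13% of all probes passed. The differences, HF-low-suf minus HF-low-low, lay between -0.30 and 0.34 in colon (16 higher, 22 lower) and between -0.37 and 0.76 in liver (28 higher, 10 lower), where most of the genes were not above background. Of all probes in liver, 51.4% were higher. The bright liver, HF-low-suf replicate 4, was the highest liver for 18 of the 38 genes, Hoxb2 included. In colon the smallest limma P belonged to Hoxc6 and Hoxd3, and neither gene was detected there. Hoxc6 was at -0.80, -0.61 and -0.23 in HF-low-low colons and at -1.17, -0.85 and -0.67 in HF-low-suf colons, a difference of -0.30 (SE 0.14, exact permutation P = 0.0411, limma P = 0.0507). Hoxd3 was at -0.78, -0.59 and -0.17 in HF-low-low colons and at -0.42, -0.22 and -0.03 in HF-low-suf colons, a difference of 0.27 (SE 0.14, exact permutation P = 0.0606, limma P = 0.0800). The groups overlapped for both. In liver the smallest limma P belonged to Hoxb3 and Hoxb2, with differences of 0.59 (SE 0.27, exact permutation P = 0.102, limma P = 0.0473) and 0.69 (SE 0.33, exact permutation P = 0.0974, limma P = 0.0542). HF-low-low livers ran from -1.53 through -0.71 to 0.05 for Hoxb3 and from -2.64 through -1.50 to -0.28 for Hoxb2, and HF-low-suf livers from -0.53 through -0.08 to 0.23 and from -1.18 through -0.82 to -0.15. In HF-low-low no liver was above background for either gene, and in HF-low-suf 1 and 2 livers were, so these differences were at the limit of detection. Without HF-low-low replicate 6, Hoxb2 in liver passed the threshold, with a difference of 0.93, and without HF-low-low replicate 1 the difference was 0.46, against 0.69 with all mice. Without the bright liver it was 0.57. By the exact permutation test alone, the smallest P in liver was that of Hoxb1 (-0.13, exact permutation P = 0.0476), which was above background on no array.

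The 4 genes with the largest difference between the tissues showed diet differences in colon within their spread. In colon, Hoxb7 differed by -0.08 (SE 0.17 on 12 arrays), Hoxb6 by -0.07, Hoxb5 by 0.04 and Hoxb9 by 0.33, with exact permutation P of 0.639, 0.716, 0.835 and 0.203. No Hox gene had a diet effect that differed between colon and liver at the threshold (1.25% of all probes did so). Without adjustment, 2 genes were below the 0.05 level, as were 6.43% of all probes: Hoxc9 with a colon diet effect smaller than that of the liver by a log2 difference of -0.97 and Hoxb2 with -0.80, and the smallest limma adjusted P among the Hox genes was 0.719.

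**Figure D5:**
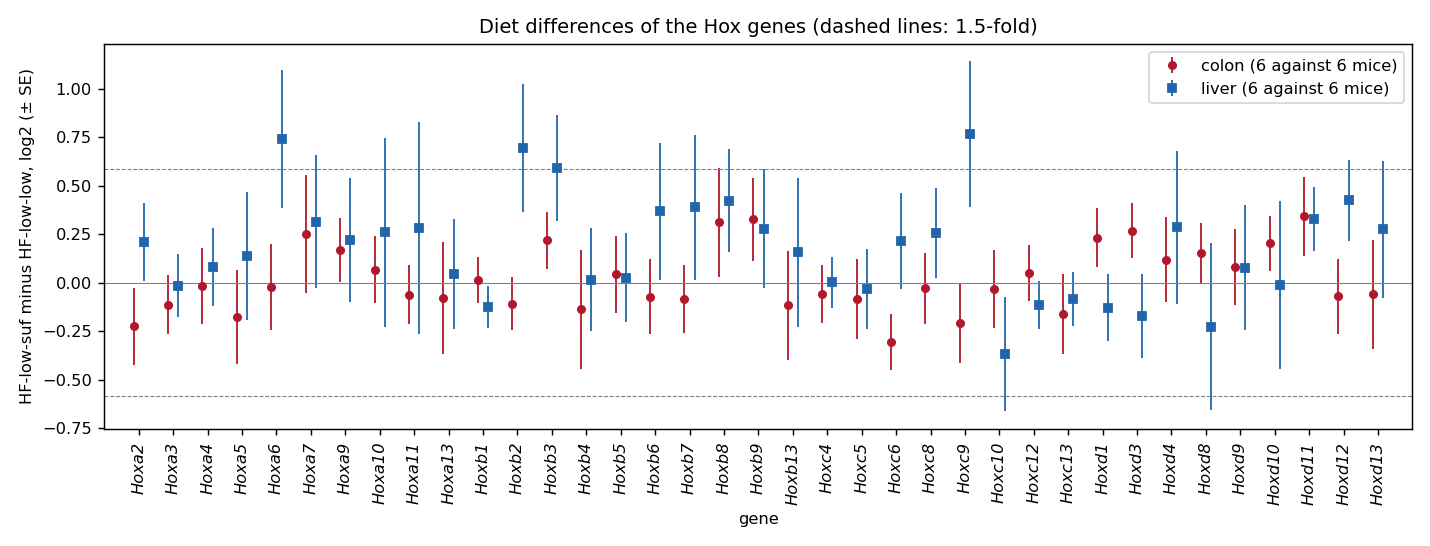
Difference between the diets (HF-low-suf minus HF-low-low, log2, ± SE) of the Hox genes named on the axis in colon (red circles) and liver (blue squares), 6 mice per diet, with dashed lines at a fold change of 1.5. Colon values lie between -0.30 and 0.34, inside the lines, and the liver values spread up to 0.76 with wider errors.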

How the data were processed

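Gene expression was measured in colon and liver of 12 mice on 24 two-colour arrays, 6 per group, grouped by the labels. The intensity values deposited by the authors are the mean Cy3 and Cy5 signal of each spot and its median local background, read with Feature Extraction 9.5.3.1 and not normalized. The processed intensity, also deposited, was background subtracted and dye normalized by that software. Other deposited flags (0 or 1) mark spots well above background or saturated; no Hox spot was saturated in Cy3. The log10 ratio in the same files was not used.

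Signals were background corrected with normexp (offset 50), control spots (1639 of 45018) and outlier spots were left out, and loess was run within arrays in limma 3.58.1 (R 4.3.3). Repeated spots were averaged to 41174 probes. For the tissues, the mouse entered as a random effect through duplicateCorrelation (statmod 1.5.0), since the labels tie colon and liver to the same animal (consensus correlation 0.158); diets were compared by lmFit and eBayes per tissue, with the threshold of the study's methods. For Hoxa6, Hoxb4, Hoxc5, Hoxc9, Hoxc10 and Hoxd1 1 array was left out as an outlier. Exact tests were two-sided. The number of arrays limits precision. The median sample signal of an array was 3.78 to 7.20 times its median local background in Cy3.

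Values by sample are given for called genes of groups 10 to 13, the 3 called genes with the largest difference in each cluster, genes detected in at least 6 livers, genes whose probes disagree, and the 2 smallest diet P per tissue. From the other lists Cdx1, Cdx2 and the largest called difference in each direction are named, except that a few items are not reported here; Mrg1, Mrg2, Ash2l, Pitx1, Lhx2, TC1432492 and the other Hox genes with values were chosen after their values were seen. The members and lists were chosen with earlier results of these data known. The alternatives tried were plain background subtraction, no background correction, software-processed signals, median centring, the Cy3 channel alone, outlier spots kept, dim probes left out, other blocks, each scan day, fold over 2, each mouse left out and the main probe by Cy3. The 2 leave-out sets of arrays were chosen after seeing the data. The fits were tested on simulated data.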

Additional observations from a re-analysis of the deposited data

Results flagged for a closer look

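Among 72 groups of 6 arrays (18 named genes in 4 groups), 2 held a value far from the others by Dixon's criterion, where chance alone gives about 1 in 20. For Hoxa10, liver HF-low-low replicate 6 was at -1.76 and the next highest of its group at -3.43, with the probe not above background in that group. For Hoxc4, liver HF-low-suf replicate 2, the liver highest in skeletal muscle transcripts, was at 0.49 and the next of its group at 0.04. In the reference channel, which the comparisons use only as a denominator, 10 Hox genes exceeded the sample on every array, and 5 of these were detected in colon.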

How the results depend on the processing

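The count of Hox genes higher in colon was between 11 (within the second scan day) and 20 (software-processed signals) against 16, 15 to 17 when 1 mouse was left out, and the 8 Hoxb genes higher in colon were called in each alternative, except that Hoxb8 was not tested once dim probes were left out. The count higher in liver, 2, fell to 0 with plain background subtraction, no background correction, median centring, dim probes left out, a fold over 2 and the second scan day, to 1 with software-processed signals, the Cy3 channel alone and the first scan day (Hoxc5, Hoxb13 and Hoxc10), and to between 0 and 2 without 1 mouse. Over all probes, 8023 were higher in colon with software-processed signals, 2759 were higher in colon and 2454 in liver at a fold over 2, and 2675 were higher in liver with median centring. Hoxc4 turned to 0.25 with median centring. The cause was not tested. With the mouse as a fixed replicate block, or with no replicate block, 16 and 2 Hox genes were called, as with the random block. The diet counts of 0 stayed at 0 in colon in all alternatives and in liver in all but 1, the fit without HF-low-low replicate 6 (range without 1 mouse 0 to 1). The replicate number as a block (the slide) left both at 0. Of 12 pairs on 1 slide, 5 had deviations correlated above 0.1, with a range of -0.50 to 0.53 and a median of -0.01. The diets were not treated as paired. For colon and liver of the same mouse, 8 of 12 pairs were above 0.1, with a median of 0.15. Detection on at least 1 array gave 33 Hox genes in colon and 22 in liver (23 and 9 without the 2 bright arrays), and on all 12 arrays 0 in liver.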
